A study of Homo sapiens with 6 samples.

Results

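The genes that build and degrade glycogen were examined in RNA-seq libraries of MDA-MB-231, an established human triple-negative breast cancer cell line. The set held 9 genes, chosen by symbol: GYS1, GBE1, PGM1, UGP2, GYG1, PPP1R3B and PPP1R3C on the synthesis side, and PYGL and PYGB on the breakdown side. All 9 were found, 1 row each, among the 17631 genes listed in every library. The labels also give the source as breast cancer tissue. The cells were exposed for 24 h to vehicle (3 libraries) or to 30 µM PDBAG1 (3 libraries), a peptide made of a stretch of the metabolic enzyme GPD1 joined to a cell-penetrating sequence. All 6 libraries came from the same line grown in serum-supplemented DMEM, so the data describe a single cell line at a single dose and time. The sources used here do not say what the vehicle contained or whether the 3 libraries of a group came from separate cultures, and p values then measure only the spread between these libraries.

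Glycogen is the branched glucose polymer in which cells store sugar. Glucose 6-phosphate is turned into glucose 1-phosphate by phosphoglucomutase (PGM1) and into UDP-glucose by UGP2. Glycogenin (GYG1) primes a new chain, glycogen synthase (GYS1) lengthens it and the branching enzyme (GBE1) adds branch points. PPP1R3B and PPP1R3C are glycogen-targeting subunits that bring protein phosphatase 1 (PP1) to the particle, where it activates synthase and switches phosphorylase off. Glycogen phosphorylase (PYGL, the liver form, and PYGB, the brain form) cuts glucose units off again. Phosphoglucomutase works in either direction and was counted with synthesis by convention. In hypoxic cells several synthesis genes, GYS1, GBE1, UGP2 and PPP1R3C among them, are known targets of hypoxia-inducible factors (HIF). The cells of this study were kept at normal oxygen, according to the paper. It nevertheless reports more HIF-1α protein and a hypoxia response in the RNA-seq data after PDBAG1. For HIF-1α target genes in MDA-MB-231 it describes a slight rise at most, or even a fall. Its PCR primers include those for GYS1, GBE1 and PGM1, and its PCR values were not compared with the levels given here.

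Promoter sequences are given for 4 members because HIF binds the core letters ACGTG or GCGTG. Whether HIF had a part in any change was not tested. The sequences are the 250 bases before the RefSeq transcription start on GRCh38.p14, written 5′ to 3′ on the gene's strand, with capitals marking ACGTG or GCGTG on either strand (CACGT and CACGC when read from the opposite strand). GYS1 (chr19:48993310-48993559, minus strand) and GBE1 (chr3:81761646-81761895, minus strand) are shown as the members with the largest rises. PPP1R3C (chr10:91633072-91633321, minus strand) is shown as a member whose change did not pass the test, and PYGL (chr14:50944484-50944733, minus strand) as a breakdown gene.
GYS1: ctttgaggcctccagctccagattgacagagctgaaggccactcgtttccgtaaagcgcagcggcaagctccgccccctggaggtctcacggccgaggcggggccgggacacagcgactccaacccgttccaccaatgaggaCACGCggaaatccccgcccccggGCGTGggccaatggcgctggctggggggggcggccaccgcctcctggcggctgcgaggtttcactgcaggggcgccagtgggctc
GBE1: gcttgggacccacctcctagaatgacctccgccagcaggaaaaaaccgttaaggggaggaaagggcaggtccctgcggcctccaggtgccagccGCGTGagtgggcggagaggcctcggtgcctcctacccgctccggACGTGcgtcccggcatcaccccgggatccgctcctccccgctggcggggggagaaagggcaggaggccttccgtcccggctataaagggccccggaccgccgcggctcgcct
PPP1R3C: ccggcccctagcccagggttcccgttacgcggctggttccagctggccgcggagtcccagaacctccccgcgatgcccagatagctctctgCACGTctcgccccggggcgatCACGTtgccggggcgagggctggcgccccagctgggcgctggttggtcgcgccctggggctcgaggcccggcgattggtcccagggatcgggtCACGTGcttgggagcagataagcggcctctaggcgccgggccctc
PYGL: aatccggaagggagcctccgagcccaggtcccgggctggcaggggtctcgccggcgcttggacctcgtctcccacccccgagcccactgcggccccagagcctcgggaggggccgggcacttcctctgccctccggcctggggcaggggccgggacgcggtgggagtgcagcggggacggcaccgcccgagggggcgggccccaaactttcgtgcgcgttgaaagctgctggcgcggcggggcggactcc
The GYS1 window held 2 matches, both GCGTG, starting 108 and 85 bases before the start, and the GBE1 window held 1 GCGTG at 156 and 1 ACGTG at 112 bases. PPP1R3C had the most, 4 matches, of which 2 are the strands of a single CACGTG. The PYGL window held none, whereas that of PYGB held 2. Of the 11 RefSeq windows of the 8 members in the table, 8 windows from 7 members held ACGTG or GCGTG. Among all 35116 windows of that length the share was 43.2%, with 18.5% holding ACGTG, 32.2% GCGTG and 6.34% the palindrome CACGTG, which overlaps ACGTG. The 11 member windows had a GC content of 51.2 to 77.2%. Both words contain CG, and the shares were not compared at like GC content. A letter match describes the sequence and is not evidence of a bound site.

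The values are TPM (transcripts scaled by their length and by the library total), a unit in which levels can be compared between genes. TPM sums to the same total in every library and keeps no sequencing depth, so the depth is unknown and the only error available is the spread over the 3 libraries of each group. Between 12392 and 12611 genes a library reached a TPM of 1. The SD of log2 differences between a pair of libraries ranged from 0.14 to 0.18 within a group and from 0.28 to 0.30 between groups. None of the libraries repeated the values of another. Of the markers fixed for the line, VIM, CD44, AXL, CAV1, S100A4 and FN1 were expressed and SPARC stayed under a TPM of 1. VIM, CD44 and FN1 rose with PDBAG1 (log2 fold changes of 0.46, 0.59 and 0.81), whereas AXL and CAV1 fell (-0.26 and -0.30) and S100A4 did not pass. The list, most of which is VIM, summed to 5971 to 6166 TPM with vehicle and 7682 to 7798 TPM with PDBAG1, and the part of these shifts in the results was not tested. CDH1 and PGR, markers of epithelial and hormone receptor-positive cells, stayed under a TPM of 1, whereas KRT18 (439 to 527 TPM) and ERBB2 (23.6 to 25.4 TPM) were present in every library. The other markers of that list, ESR1 (1.96 to 3.38 TPM), EPCAM (3.92 to 5.78 TPM) and GATA3 (2.73 to 3.88 TPM), were low but above 1 in every library. The leukocyte marker PTPRC lay between 0.86 and 1.41 TPM, although CD68 was at 251 to 264 TPM with vehicle and 306 to 329 TPM with PDBAG1, while the hepatocyte, skeletal muscle and adipocyte lists summed to at most 1.66 TPM in any library. In bulk libraries a change of RNA per cell and a change in the mix of cells cannot be told apart.

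Of the 7 synthesis genes 5 rose with PDBAG1, and both phosphorylase genes rose by smaller amounts. GYS1, GBE1, PGM1, UGP2 and PPP1R3B on the synthesis side and PYGL and PYGB on the breakdown side were higher at an adjusted p under 0.05 (limma on log2(TPM + 1), Benjamini-Hochberg over the 12582 genes tested). That made 7 of 9 members higher and 0 lower, while at the same adjusted p 37.6% of all genes tested were called, 21.7% higher and 15.9% lower. At an unadjusted limma p under 0.05, 0 members were lower as well. The 3 vehicle and 3 PDBAG1 libraries did not overlap for these 7 members, as for 47.4% of all genes tested (27.2% higher, 20.2% lower). GYG1 and PPP1R3C did not pass. The median log2 fold change was 0.47 for the 7 synthesis genes and 0.17 for the 2 breakdown genes, beside 0.03 for all genes tested. On the log2(TPM + 1) scale GYS1 and GBE1 also passed the study's limit of a 1.5-fold change, which 3.34% of all genes tested did (2.86% higher, 0.477% lower). All 9 members had a TPM of at least 1 in each of the 6 libraries.

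**Figure D1:**
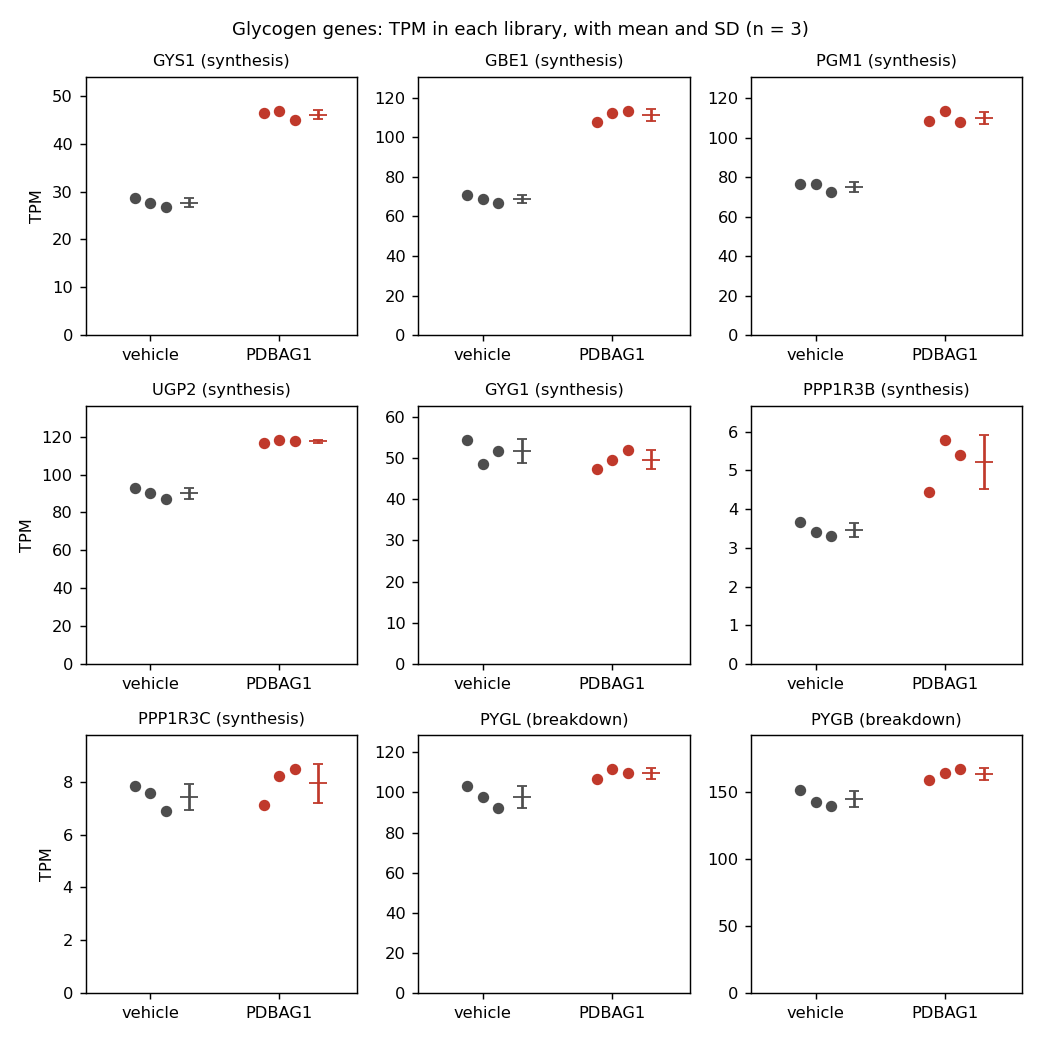
TPM (vertical axes, each from 0) of the 9 glycogen genes in the 3 vehicle (grey) and 3 PDBAG1 (red) libraries, with the group mean and SD beside the points. The groups are apart for 7 genes, most widely for GYS1 and GBE1, and overlap for GYG1 and PPP1R3C.

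GYS1 (chromosome 19, 48968130 to 48993310, GRCh38, GENCODE v44), the muscle-type synthase that most tissues outside the liver use, had 28.7, 27.7 and 26.7 TPM in the vehicle libraries and 46.5, 46.9 and 45.0 TPM in the PDBAG1 libraries. The lowest treated library lay well above the highest vehicle library. The mean went from 27.7 ± 0.960 to 46.1 ± 1.00 TPM (SD, n = 3 each), 1.67 times the vehicle level, with a log2 fold change of 0.72 (SE 0.05, limma adjusted p = 3.23e-07). Of the 12582 genes tested, 1.68% had a larger log2 fold change. GYS2, the liver synthase, stayed under a TPM of 1 in all 6 libraries (0.09 to 0.37 TPM), so that GYS1 carried nearly all synthase transcripts under either condition.

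GBE1 (chromosome 3, 81489703 to 81761645), the branching enzyme, had 71.0, 68.7 and 67.0 TPM with vehicle and 108, 112 and 113 TPM with PDBAG1. Mean levels were 68.9 ± 2.02 and 111 ± 2.87 TPM (SD, 3 libraries a group). The log2 fold change was 0.68 (SE 0.05, limma adjusted p = 9.01e-08). The level of GBE1 per GYS1 transcript overlapped between the groups, with means of 2.49 ± 0.0156 under vehicle and 2.41 ± 0.0997 under the peptide (SD, n = 3). GBE1 transcripts per phosphorylase transcript (PYGL plus PYGB) went from 0.284 ± 0.00487 to 0.407 ± 0.00134, with every treated library above every vehicle library.

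The enzymes that supply UDP-glucose rose too, in smaller steps. PGM1 (chromosome 1, 63593411 to 63660245) had 76.6, 76.4 and 72.4 TPM with vehicle and 108, 114 and 108 TPM with PDBAG1, with no overlap between groups. Its log2 fold change was 0.54 (SE 0.05, limma adjusted p = 8.93e-07), 1.46 times the vehicle level and just short of the 1.5-fold limit. A stretch of 197 exonic bases, 4.83% of the exonic bases of PGM1, is shared with ITGB3BP on the opposite strand, which did not pass (log2 fold change -0.15, limma adjusted p = 0.0861). UGP2 (chromosome 2, 63840952 to 63891562), which turns glucose 1-phosphate into UDP-glucose, had 92.9, 90.4 and 87.0 TPM with vehicle and 117, 118 and 118 TPM with PDBAG1. Again all 3 treated libraries were higher, with a log2 fold change of 0.38 (SE 0.04, limma adjusted p = 1.53e-05).

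GYG1 (chromosome 3, 148991408 to 149031775), the primer of the chain, did not pass the test. It had 54.4, 48.6 and 51.8 TPM with vehicle and 47.3, 49.6 and 51.9 TPM with PDBAG1, and the groups overlapped throughout. The log2 fold change was -0.06 (95% interval -0.18 to 0.07, limma adjusted p = 0.470). HLTF lies on the opposite strand and shares 1649 exonic bases with GYG1, 21.8% of the exonic bases of GYG1, and since no source used here states stranded counting, reads from this stretch may belong to either gene. HLTF itself was at 40.2 ± 3.66 and 41.5 ± 3.61 TPM (SD, n = 3 each). GYG1 transcripts per GYS1 transcript went from 1.86 ± 0.0958 to 1.08 ± 0.0694 (SD, n = 3 each), without overlap. GYG2, the liver glycogenin, was under a TPM of 1 in every library.

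The PP1 targeting subunits were expressed at low levels and differed from each other. PPP1R3B had 3.66, 3.42 and 3.31 TPM with vehicle and 4.44, 5.79 and 5.40 TPM with PDBAG1. PDBAG1 replicate 1 was the lowest of the treated libraries but still above every vehicle library. The log2 fold change of PPP1R3B was 0.47 (SE 0.10, limma adjusted p = 0.00284), which is 1.39-fold and short of the 1.5-fold limit. The ratio of the mean TPM was 1.504, past that limit, since a pseudocount of 1 understates the change of genes at this level. PPP1R3C (chromosome 10, 91628442 to 91633071), also called PTG, had 7.84, 7.59 and 6.90 TPM with vehicle and 7.11, 8.23 and 8.51 TPM with PDBAG1. These ranges overlapped and the change did not pass (log2 fold change 0.08, 95% interval -0.11 to 0.27, limma adjusted p = 0.499). Under quantile normalization the sign of the PPP1R3C value turned, at -0.017, also without passing.

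On the breakdown side, PYGL (chromosome 14, 50857891 to 50944483) had 103, 97.6 and 92.4 TPM with vehicle and 107, 112 and 110 TPM with PDBAG1. The vehicle libraries were spread over a wider range than the gap between the groups. The log2 fold change of PYGL was 0.16 (SE 0.05, limma adjusted p = 0.0162), and the call rested on single libraries: the value was 0.12 without vehicle replicate 3 (adjusted p = 0.1002) and 0.15 without PDBAG1 replicate 2 (adjusted p = 0.0678). It was also lost at an adjusted p of 0.0602 when no trend of variance with expression was fitted. PYGB (chromosome 20, 25248085 to 25298012) was the most abundant of the 9 genes, with 152, 143 and 140 TPM under vehicle and 159, 165 and 168 TPM under PDBAG1. Its log2 fold change was 0.18 (SE 0.04, limma adjusted p = 0.00588).

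PYGL contributed 40.3 ± 0.486% of the summed TPM of the pair in vehicle libraries and 40.0 ± 0.445% in treated ones (SD, n = 3), so the split between the liver and brain forms overlapped between the groups. PYGM, the muscle phosphorylase, had at most 0.21 TPM in any library. In each PDBAG1 library the transcripts for breakdown were still more abundant than those of the synthase, with GYS1 at 0.162 to 0.175 transcripts per phosphorylase transcript (PYGL plus PYGB) against 0.112 to 0.115 with vehicle.

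**Figure D2:**
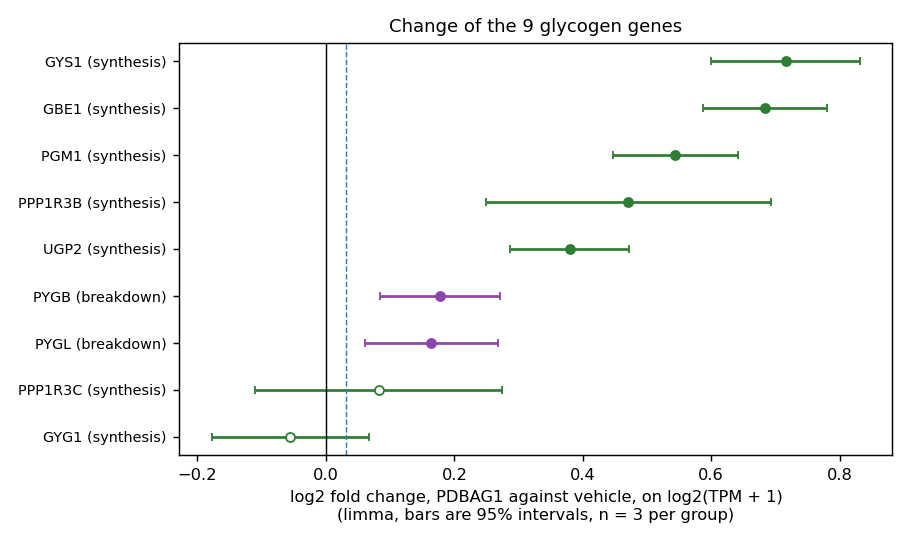
Log2 fold change of each member with PDBAG1 (horizontal axis, log2(TPM + 1) scale, limma) with its 95% interval, for synthesis genes (green) and breakdown genes (purple). Filled points passed an adjusted p of 0.05, and the dashed line is the median of all genes tested, 0.03. GYS1, GBE1 and PGM1 lie to the right of PYGB and PYGL with no overlap of intervals, and GYG1 and PPP1R3C lie to their left.

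To set synthesis against breakdown within a library, the mean log2(TPM + 1) of PYGL and PYGB was subtracted from that of the 7 synthesis genes. The difference was -1.97, -1.95 and -1.94 in the vehicle libraries and -1.74, -1.70 and -1.71 in the PDBAG1 libraries. Every treated library was higher, and the group means differed by 0.23 on the log2 scale, against an SD of 0.018 with vehicle and 0.023 with PDBAG1. No p is given for this score, since its genes were chosen with results of these data known. Quantile normalization reduced the difference to 0.18 and a pseudocount of 0.1 raised it to 0.25, while leaving out each library in turn kept it between 0.22 and 0.24. Counting only GYS1, GBE1, PGM1 and UGP2, which all rose, as synthesis gave means of -0.97 with vehicle and -0.56 with PDBAG1. That difference was 0.41, so the size of the score depends on the genes counted. The 95% intervals of GYS1 (0.60 to 0.83), GBE1 (0.59 to 0.78), PGM1 (0.45 to 0.64) and UGP2 (0.29 to 0.47) lay above those of PYGB (0.08 to 0.27) and PYGL (0.06 to 0.27), whereas that of PPP1R3B (0.25 to 0.69) reached into them. These intervals were made for each gene separately from the same 6 libraries, so their separation is not a test of synthesis against breakdown. In plain sums, synthesis transcripts went from 324 ± 10.1 to 448 ± 8.51 TPM and breakdown transcripts from 243 ± 11.3 to 273 ± 6.60 TPM (SD, n = 3 each).

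**Figure D3:**
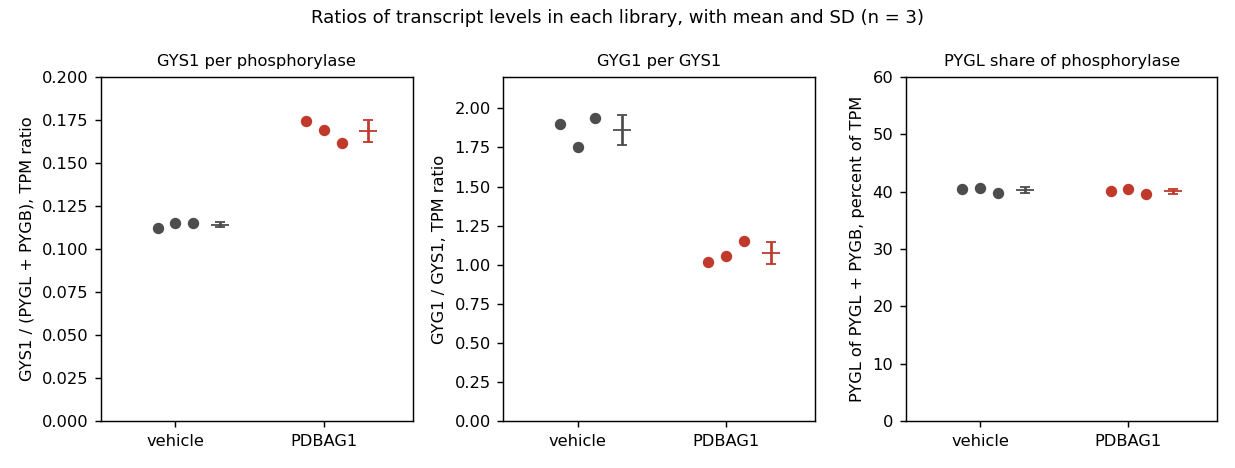
Ratios of TPM in each vehicle (grey) and PDBAG1 (red) library with the group mean and SD (n = 3), all axes from 0: GYS1 per PYGL plus PYGB, GYG1 per GYS1, and PYGL as a percent of PYGL plus PYGB. The first ratio is higher in every PDBAG1 library, the second is lower in every one, and the third overlaps between the groups.

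The order of levels shifted accordingly. In the vehicle libraries the genes ranked PYGB, PYGL, UGP2, PGM1, GBE1, GYG1, GYS1, PPP1R3C and PPP1R3B by mean TPM, and only PYGL and UGP2 had overlapping ranges. In the PDBAG1 libraries UGP2 (118 ± 0.910 TPM), GBE1 (111 ± 2.87 TPM) and PGM1 (110 ± 3.16 TPM) ranked above PYGL (109 ± 2.61 TPM; SD, n = 3 each), but GBE1, PGM1 and PYGL overlapped in their ranges and are not ordered beyond their spread. GYG1 and GYS1, which had stood at 51.6 and 27.7 TPM, lay next to each other at 49.6 and 46.1 TPM without overlapping.

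Over the 6 libraries, the genes outside the set whose log2(TPM + 1) followed GYS1 most closely were KDM4B, TUBA1A and HGS, with Pearson r of at least 0.999. The points share the treatment difference. All 3 genes rose, with log2 fold changes of 0.90, 0.72 and 0.33. GYG1, the member with the lowest log2 fold change, was followed most closely by VMA21, SLTM and SEC23A (Pearson r of 0.995 to 0.998 over 6 libraries), none of which passed the test. For both members the 3 genes were picked as the highest among all tested genes outside the set. With 6 points such a choice yields high r by itself, so these genes are a description only.

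A further 47 genes of glycogen metabolism and its surroundings were listed by their role in the pathway. Of the 40 that could be tested, 8 rose, 8 fell and 24 did not pass, with a median log2 fold change of -0.02. These shares stand beside the 21.7% of all genes tested that were called higher and the 15.9% called lower. PPP1R3A was not among the genes listed, and GYS2, GYG2, PYGM, PRKAG3, G6PC1 and G6PC2, which serve liver, muscle or islet, stayed under a TPM of 1 in every library.

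STBD1, which binds glycogen and tethers it to membranes for delivery to lysosomes, had the highest log2 fold change among these genes. It was at 7.01, 8.50 and 8.48 TPM with vehicle and 13.6, 13.1 and 15.9 TPM with PDBAG1, clearly apart. The value was 0.76 (SE 0.09, 95% interval 0.56 to 0.96, limma adjusted p = 3.20e-05), an interval that holds that of GYS1, and with a pseudocount of 1 STBD1 alone of the 40 passed the 1.5-fold limit. It shares 88.5% of its exonic bases with the read-through gene FAM47E-STBD1, which was listed at 0.29 to 3.15 TPM, so the split of reads between them is uncertain. GAA, the lysosomal enzyme that digests glycogen, was at 10.1 ± 0.305 and 12.3 ± 0.453 TPM (SD, n = 3 each) and rose by 0.26 on the log2 scale (limma adjusted p = 0.0126), a call lost without vehicle replicate 2 (adjusted p = 0.0520).

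**Figure D4:**
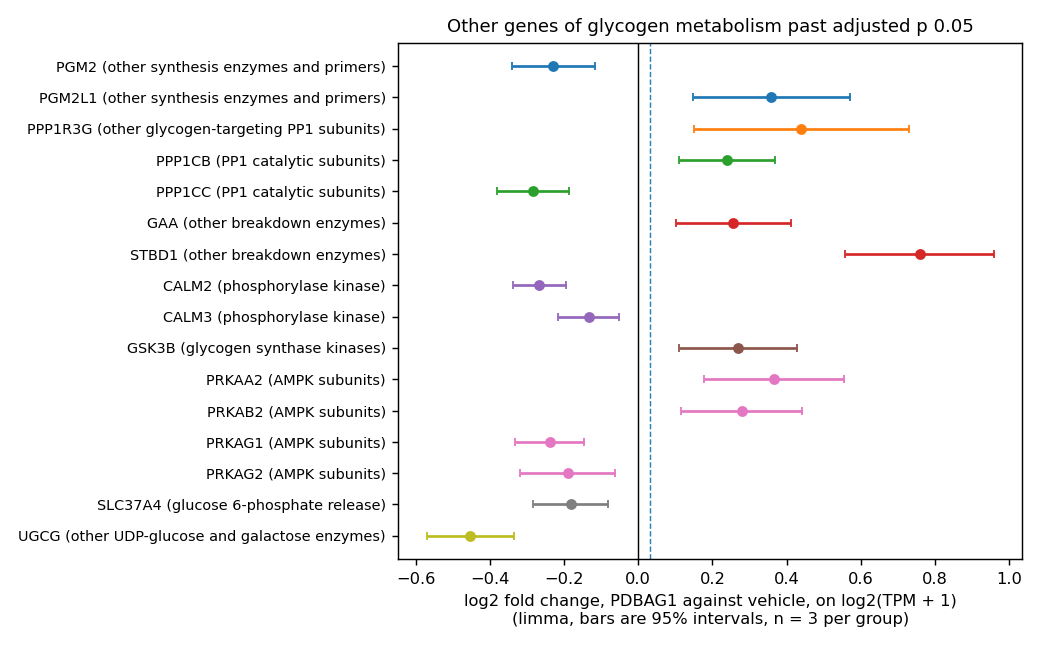
Log2 fold change with PDBAG1 (horizontal axis, log2(TPM + 1) scale, limma) and 95% interval of the 16 genes outside the set that passed an adjusted p of 0.05, coloured and labelled by list, with the median of all genes tested as a dashed line. The 8 genes that rose lie to the right of 0 with STBD1 farthest out, and the 8 that fell lie to the left with UGCG farthest out.

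The other mutases went in opposite directions. PGM2, which prefers pentose phosphates, fell from 65.8 ± 1.96 to 56.0 ± 2.87 TPM (log2 fold change -0.23, limma adjusted p = 0.00350), whereas PGM2L1, which makes glucose 1,6-bisphosphate, rose from 5.86 ± 0.544 to 7.82 ± 0.949 TPM (log2 fold change 0.36, limma adjusted p = 0.0110; SD, n = 3 each). Among further targeting subunits of PP1, PPP1R3G rose by 0.44 on the log2 scale (limma adjusted p = 0.020) from a level of 0.75 to 1.2 TPM with vehicle. PPP1R3G passed the expression filter through its treated libraries, and its call was lost in 4 of 12 alternatives. With a pseudocount of 0.1 its log2 fold change was 0.76 (limma adjusted p = 0.0215), past the 1.5-fold limit. PPP1R3D, PPP1R3E and PPP1R3F did not pass. Of the catalytic subunits, PPP1CB rose (log2 fold change 0.24, limma adjusted p = 0.00653), PPP1CC fell (-0.28, limma adjusted p = 2.49e-04) and PPP1CA was at 0.01.

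Phosphorylase kinase, which switches phosphorylase on, had no subunit of its own that passed the test. The log2 fold changes of PHKA1, PHKA2, PHKB, PHKG1 and PHKG2 lay between -0.15 and 0.01. Its calmodulin subunit comes from several genes, CALM2 and CALM3 among them, which encode the same protein and serve many other enzymes. CALM2 fell by 0.27 on the log2 scale (limma adjusted p = 3.74e-05), from 933, 948 and 956 TPM with vehicle to 773, 775 and 810 TPM with PDBAG1. CALM3 fell by 0.13 (limma adjusted p = 0.0132), a call lost in 3 of 12 alternatives. Neither laforin (EPM2A) nor malin (NHLRC1), which guard glycogen against overlong chains, passed the test.

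The kinases that act on glycogen synthase were uneven. GSK3B, which phosphorylates and restrains the synthase, rose by 0.27 on the log2 scale (limma adjusted p = 0.0110; 0.0556 without vehicle replicate 3), while GSK3A was at -0.01. AMPK carries a glycogen-binding domain on its beta subunits. PRKAA2 (log2 fold change 0.37, limma adjusted p = 0.00506) and PRKAB2 (0.28, limma adjusted p = 0.0103) rose from low levels of 7.28 ± 0.618 and 10.8 ± 0.425 TPM, and PRKAG1 fell from 107 ± 3.29 to 90.7 ± 0.710 TPM (SD, n = 3 each; -0.24, limma adjusted p = 6.91e-04). PRKAG2 fell as well (-0.19, limma adjusted p = 0.0218), although its groups overlapped. The more abundant PRKAA1 and PRKAB1 did not pass. PRKAG1 shares 49.5% of its exonic bases with another annotated gene on its strand, and its value is uncertain to that extent.

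Around glucose 6-phosphate and UDP-glucose, SLC37A4 and UGCG were the 2 of 9 genes tested that passed, and both fell. SLC37A4, the transporter that carries glucose 6-phosphate into the endoplasmic reticulum, fell by 0.18 on the log2 scale (limma adjusted p = 0.00795; 0.0553 without vehicle replicate 3). It shares 13.3% of its exonic bases with TRAPPC4 on the opposite strand, which fell by 0.22. Of the 7 genes for other uses of UDP-glucose and galactose, UGCG builds glucosylceramide from UDP-glucose. It had 80.1, 76.5 and 74.5 TPM with vehicle and 52.4, 56.5 and 59.3 TPM with PDBAG1, a log2 fold change of -0.45 (SE 0.05, limma adjusted p = 2.61e-05). GALK1, GALT, UGDH, UGGT1 and UGGT2 did not pass.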

How the data were processed

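RNA-seq data of MDA-MB-231 cells, 3 libraries with vehicle and 3 with 30 µM PDBAG1 for 24 h, were grouped by the sample titles. Per the paper, sequencing was done by BGI (BGISEQ-500) and HISAT2 aligned the filtered reads to GRCh38.p13, whereas the labels name Illumina library preparation. The submitters' processing notes name GRCh38.p12, HISAT2 2.0.4, Bowtie2 2.2.5 and RSEM 1.2.12. The deposited files hold TPM with 2 decimals, although the methods speak of FPKM. The annotation release and the strandedness of counting are not given in the sources used here. TPM keeps no depth, so a read-count test could not be made.

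Testing was limited to the 12582 of 17631 genes that reached a TPM of 1 in 3 libraries or more. Values of log2(TPM + 1) went into limma 3.58.1 under R 4.3.3 (lmFit, eBayes with a variance trend, two-sided), with Benjamini-Hochberg adjustment over all genes tested and calls at an adjusted p under 0.05. The study's 1.5-fold limit was applied as a second rule. An exact permutation test of 3 against 3 libraries cannot give a p under 0.1 and was not used. The members and lists were chosen with earlier results of these data known. All 9 members are named. Some genes of the other lists are not reported here. Of the other lists, genes past the threshold are named, up to 3 a list by p, with other values given for context. PRKAG2 and FAM47E-STBD1, among others, fall outside this rule and were named after their values were seen. For GYS1 and GYG1, the members with the highest and lowest log2 fold change, the 3 genes with the highest Pearson correlation over the libraries are named.

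Positions are from GENCODE v44 on GRCh38, which holds 17212 of the 17631 identifiers and all 9 members, and promoter sequences are from RefSeq (GRCh38.p14), where 8 of the 9 members had an entry. G6PC1 is listed under its older symbol. The procedure was checked on simulated data with known changes. The alternatives were a pseudocount of 0.1, no expression filter, median-of-ratios scaling, quantile normalization, no variance trend, the replicate number as a block, and leaving out each library.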

Additional observations from a re-analysis of the deposited data

How the results depend on the processing

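GYS1, GBE1, PGM1, UGP2, PPP1R3B and PYGB kept direction and call under all 12 alternatives, and GYG1 and PPP1R3C passed under none. The call of PYGL was lost in 3 of the 12, so that 6 or 7 members passed in every setting, and leaving out each library in turn gave 6 to 7. The lowest log2 fold changes over the alternatives were 0.68 for GYS1, 0.65 for GBE1, 0.51 for PGM1, 0.35 for UGP2 and 0.36 for PPP1R3B. On the log2 scale GYS1 and GBE1 passed the 1.5-fold limit in each setting and no other member did. By the ratio of mean TPM, PPP1R3B also reached it, at 1.504. For KDM4B and the other genes likened to GYS1 or GYG1 no alternative was run. The difference between synthesis and breakdown was 0.18 under quantile normalization, the cause of which was not tested. It was 0.25 with a pseudocount of 0.1, 0.23 with median-of-ratios scaling and 0.22 to 0.24 with each library left out. PPP1R3C turned to -0.017 under quantile normalization. Of the 47 other genes 12 to 17 passed, with 16 as reported, 12 without vehicle replicate 3. Libraries of like number did not pair (their deviations from the group means correlated at -0.21, 0.01 and -0.08). With the replicate number as a block, 7 members and 16 other genes passed, and the block changed no call of a member. Over all genes tested, 4736 passed, 57.8% of them higher, and 5146 passed under quantile normalization, 46.7% higher; leaving out a library gave 3520 to 4682. Scalings moved the median of all genes by less than 0.1 on the log2 scale. TPM holds no depth, so the counting error of low genes such as PPP1R3B and PPP1R3G cannot be given.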
